A study of Mus musculus with 72 samples.

Results

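The sites described here are CEBPB binding sites of mouse embryonic fibroblasts (MEFs) at which p300 and H3K27ac were also found in wild-type cells. A CEBPB ChIP-seq peak of WT replicate 1 was a member when it overlapped, by at least 1 bp, a CEBPB peak of WT replicate 2, a p300 peak of either WT library and an H3K27ac peak of either WT library. Of the 14197 CEBPB peaks of WT replicate 1, 12106 overlapped one of replicate 2, and 1408 of these, 11.6%, were members. A further 3425 shared CEBPB sites had H3K27ac and no p300, 426 had p300 and no H3K27ac, and 6847 had neither. The members were thus chosen by the WT lists of all 3 marks, and the WT values of these marks are given as a description, with no test. Their values in DKO lists and the Brd3 lists were not used to choose them.

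CEBPB is a basic leucine zipper transcription factor that binds DNA as a dimer and is known in fibroblasts for roles in adipogenesis, inflammation and stress responses. p300 is a histone acetyltransferase recruited by many transcription factors, and it acetylates lysine 27 of histone H3, so that CEBPB, p300 and H3K27ac together are a common picture of an active enhancer. Brd3 is a bromodomain protein that binds acetylated chromatin.

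WT MEFs were Hmgn1+/+n2+/+ and DKO MEFs were Hmgn1-/- n2-/-, lacking the nucleosome-binding proteins HMGN1 and HMGN2, both of strain C57BL/6. Each antibody had 2 biological replicates per genotype, and the files hold the authors' peak lists, called separately in each library, with the fold enrichment of the summit over local background. The question was whether the marks of one site were kept or lost together in DKO cells. The label of the cells was checked at gene starts. H3K27ac peaks lay within 1000 bp of the start of 17 to 18 of 18 fibroblast marker genes in the 4 libraries, of 3 of 10 macrophage and leukocyte markers, of 0 of 8 epithelial markers and of 1 of 8 pluripotency markers. Depth per library is not in the files. It could be solved from the summits of p300, H3K27ac and Brd3, whose lowest background lay between 1.15 and 1.89 reads, but not for CEBPB.

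To show what these sites look like, 8 windows of 101 bp of the mm9 genome, centred on the CEBPB summit and given on the plus strand, are shown with matches to 6 searched motifs in capitals. The first pair had the strongest WT CEBPB peaks among members that kept CEBPB, p300 and H3K27ac in both DKO libraries.
Runx2, chr17:44846960-44847060: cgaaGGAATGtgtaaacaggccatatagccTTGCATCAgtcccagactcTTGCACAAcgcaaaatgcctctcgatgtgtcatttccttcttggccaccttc
Nup62, chr7:52074414-52074514: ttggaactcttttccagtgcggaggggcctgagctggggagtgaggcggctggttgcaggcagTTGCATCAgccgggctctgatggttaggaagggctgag
The next pair had the strongest WT CEBPB peaks among members with neither CEBPB nor p300 in any DKO library.
Sirt4, chr5:115941796-115941896: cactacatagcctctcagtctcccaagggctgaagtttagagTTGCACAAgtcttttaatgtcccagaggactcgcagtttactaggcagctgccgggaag
Pmepa1, chr2:173203508-173203608: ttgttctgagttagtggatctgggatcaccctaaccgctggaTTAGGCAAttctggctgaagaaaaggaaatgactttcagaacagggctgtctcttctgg
The third pair kept CEBPB in both DKO libraries and had p300 in neither.
Htra1, chr7:138086905-138087005: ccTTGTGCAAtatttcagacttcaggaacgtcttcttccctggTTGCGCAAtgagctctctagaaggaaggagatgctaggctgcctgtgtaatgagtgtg
Cd180, chr13:103560416-103560516: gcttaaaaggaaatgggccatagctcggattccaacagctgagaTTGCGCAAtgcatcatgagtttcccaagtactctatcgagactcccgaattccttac
The last pair kept p300 in both DKO libraries and had CEBPB in neither.
Sesn3, chr9:14004886-14004986: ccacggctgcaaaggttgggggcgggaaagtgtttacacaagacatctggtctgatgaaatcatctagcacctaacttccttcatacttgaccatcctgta
Runx1t1, chr4:13169240-13169340: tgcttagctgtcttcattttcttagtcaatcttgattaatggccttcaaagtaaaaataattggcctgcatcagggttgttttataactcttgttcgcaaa
The Runx2 window held a TEAD match (GGAATG), a C/EBP-ATF composite (TTGCATCA) and a C/EBP core, and the Nup62 window a composite alone. The windows named for Sirt4, Pmepa1, Htra1 and Cd180 each held a C/EBP core, Htra1 with 2 of them. The 2 windows that kept p300 and not CEBPB held 0 matches to any of the 6 motifs. Genes are named by the nearest protein-coding transcript start and are not shown to be targets.

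In DKO cells H3K27ac was found at most members, CEBPB in both libraries at 51.6% and p300 at 31.3%, and Brd3 at few. CEBPB peaks overlapped 1408 and 1408 members in the WT libraries, by the rule, and 773 and 810 in the DKO libraries. p300 peaks overlapped 1264 and 1004 members in WT replicates 1 and 2, and 568 and 596 in DKO. H3K27ac peaks overlapped 1285 and 1266 members in WT, and 1179 and 1206 in DKO. The rule required these marks in WT lists, so lower DKO counts are in part built in and are not a result by themselves. Peaks of histone H1, the linker histone, and of the repressive mark H3K27me3 overlapped 0 members in all 4 libraries, and at most 9 and 1 of the 12106 shared CEBPB sites, so that these zeros are not particular to the members.

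**Figure D1:**
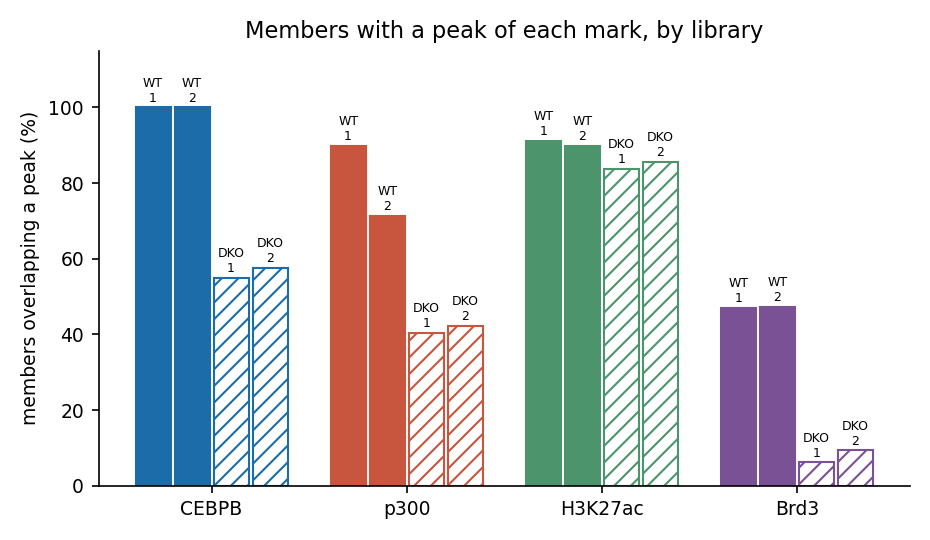
Share of the 1408 members that overlapped a peak of each mark (vertical axis, percent), with 1 bar per library, filled for WT and hatched for DKO. CEBPB fell from 100% by the rule to 54.9% and 57.5%, p300 from 89.8% and 71.3% to 40.3% and 42.3%, and H3K27ac stayed between 83.7% and 91.3%.

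A mark was counted as lost at a member when neither DKO library had a peak there. CEBPB was lost at 551 members (39.1%), below the 55.3% of all CEBPB sites of both WT libraries, kept in both DKO libraries at 726 and found in only 1 at 131. p300 was lost at 684 members (48.6%), kept in both at 440 and found in 1 at 284. Of all p300 sites of either WT library, 57.6% were lost, and of the 1407 of these that held a member, 47.8%. H3K27ac was lost at 131 members (9.30%) and kept in both at 1108. Of all H3K27ac sites of either WT library, 27.1% were lost, and of the 1644 that touched a member, 4.08%. These shares are descriptions, since the WT lists chose the members.

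With the same number of top peaks taken from each library of an antibody, which removes any overall difference in peak number by construction, 394 sites with strong peaks met the rule, and CEBPB was lost at 4.31% of them, p300 at 30.7% and H3K27ac at 6.60%. The list lengths and the members both changed there, and their parts were not told apart. Among the 717 members with p300 and H3K27ac in both WT libraries, p300 was lost at 28.6%, H3K27ac at 3.63% and CEBPB at 37.0%. The share for H3K27ac was 20.3% with a 50% overlap and 2.41% when a DKO peak within 500 bp was enough, and 14.3% without DKO replicate 1 and 16.3% without DKO replicate 2.

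How much of this was already seen between replicates of one genotype was read from sites chosen in a single library. Of 1269 sites with all 3 marks in WT replicate 1, 91.2% had CEBPB in WT replicate 2, against 50.9% and 53.4% in the DKO libraries. p300 was found at 68.8% of these sites in WT replicate 2 and at 45.2% and 46.1% in the DKO libraries. Of 1006 sites chosen in WT replicate 2, p300 was found at 86.2% in WT replicate 1 and at 52.7% and 54.7% in DKO. The lowest p300 background was 1.58 and 1.15 reads in the WT libraries and 1.22 and 1.27 in DKO, and the part of depth was not tested. H3K27ac was found at 89.5% of the sites chosen in WT replicate 1 in WT replicate 2 and at 87.0% and 88.8% in DKO, so that H3K27ac was read again nearly as often in DKO as in the other WT replicate. The choice was also made in reverse. Of 375 sites chosen by the mirrored rule in the DKO lists, 329 overlapped a member, CEBPB was in no WT library at 2, p300 at 27 and H3K27ac at 41. These were 0.533%, 7.20% and 10.9% of the 375. The DKO lists were shorter for CEBPB (4886 and 5328 peaks against 14197 and 14692 in WT) and p300 (2974 and 3325 against 7323 and 5398) and closer in length for H3K27ac (76968 and 77614 against 84850 and 84760), and sites of a short list are found in a long one more easily, so these shares and those of the members are not compared. These single-library and mirrored choices were added after the data were seen.

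CEBPB and p300 were lost at the same members only slightly more often than their separate rates give. Both were lost at 283 members, where the product of the 2 rates gives 268. CEBPB was lost at 41.4% of members that lost p300 and at 37.0% of those that kept it. The odds ratio of joint loss was 1.2 over both DKO libraries and 1.08 to 1.17 when single DKO libraries were set against each other. It was 1.31 within classes of WT CEBPB and p300 strength and 2.08 among the 394 members of the equal-length lists, where it rests on the few sites (4.31%) that lost CEBPB. Of the remaining members, 401 lost p300 and kept CEBPB, 268 lost CEBPB and kept p300, and 456 kept both in at least 1 DKO library. Between replicates of 1 genotype, with sites chosen in a single library, the odds ratio of joint absence was 1.10 and 1.12 in WT and 0.685 and 0.633 in DKO. The same WT sites read in the DKO libraries gave 1.04 and 1.19 for WT replicate 1 and 1.04 and 1.07 for WT replicate 2. Joint absence in DKO was thus about as frequent as between WT replicates.

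**Figure D2:**
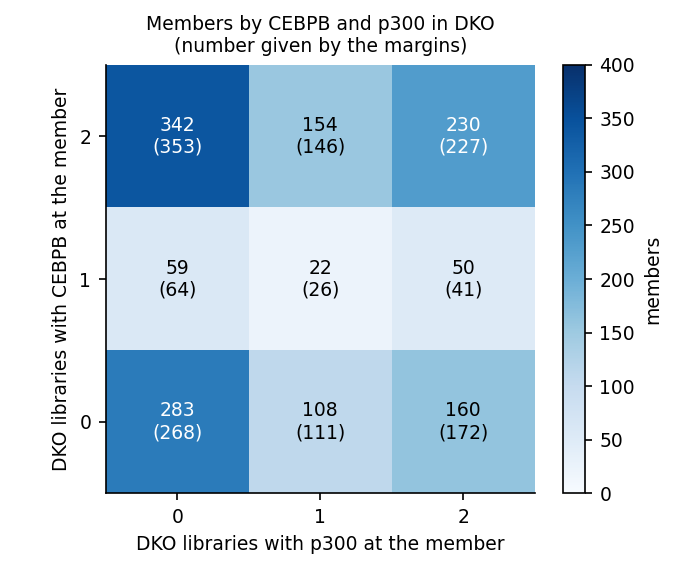
Number of members by the count of DKO libraries with CEBPB (vertical axis) and with p300 (horizontal axis), with the number that the margins alone give in parentheses and the shade on a linear scale. Members with neither mark number 283 against 268 from the margins and members with both in both libraries 230 against 227, and the cell farthest above its number in proportion holds 50 against 40.9.

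H3K27ac was lost more often where p300 was lost, and about equally often where CEBPB was lost or kept. H3K27ac was lost at 12.4% of the members that lost p300 and at 6.35% of those that kept it, an odds ratio of 2.09 that was 1.99 within classes of WT strength of the 2 marks and 1.35 to 1.66 between single DKO libraries. It was lost at 9.62% of the members that lost CEBPB and at 9.10% of those that kept it, an odds ratio of 1.06 that was 0.836 within classes. All 3 marks were lost at 34 members, 2.41%, and the product of the 3 rates gives 24.9. All 3 were found in both DKO libraries at 191 members. None of the 3 was lost at 429 members, the most common state, followed by the loss of p300 alone (350 members), and then by the loss of CEBPB alone and the loss of CEBPB and p300 with H3K27ac kept (249 members each). No test is given for these counts, since neighbouring sites and marks share libraries and the members were chosen on the WT lists. H3K27ac loss here means no DKO peak on the CEBPB interval itself. With a DKO peak within 500 bp enough, H3K27ac was lost at 2.41% of members. The odds ratios and counts of this paragraph were not recomputed at that distance.

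Each mark was lost mostly where its own WT peak was weak. CEBPB and p300 losses varied less with the strength of each other, whereas p300 loss fell with H3K27ac strength and H3K27ac loss was lowest in the strongest p300 class. Members were divided into 5 classes by the highest −log10 p of the mark in the WT lists. CEBPB was lost at 87.6%, 68.3%, 32.3%, 7.12% and 0.355% of the members from the weakest to the strongest CEBPB class. p300 was lost at 83.3%, 71.2%, 54.6%, 30.6% and 3.19% from the weakest to the strongest p300 class, and H3K27ac at 30.5%, 10.7%, 3.19%, 1.42% and 0.709% by its own class. Across the CEBPB classes, in contrast, p300 was lost at between 44.3% and 50.5% with no order. Across the p300 classes CEBPB was lost at 43.3% in the weakest and 34.4% in the strongest, and H3K27ac at 10.6% and 3.90%. Across the H3K27ac classes p300 loss fell at each step, from 58.2% to 36.2%, while CEBPB loss lay between 33.3% and 44.3%. In WT cells the strengths of CEBPB and p300 were unrelated over the members (Spearman rho = -0.01, Pearson r = 0.01, n = 1408), and those of p300 and H3K27ac were weakly related (rho = 0.25, r = 0.26). These are correlations across sites of the same libraries, given as a description.

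**Figure D3:**
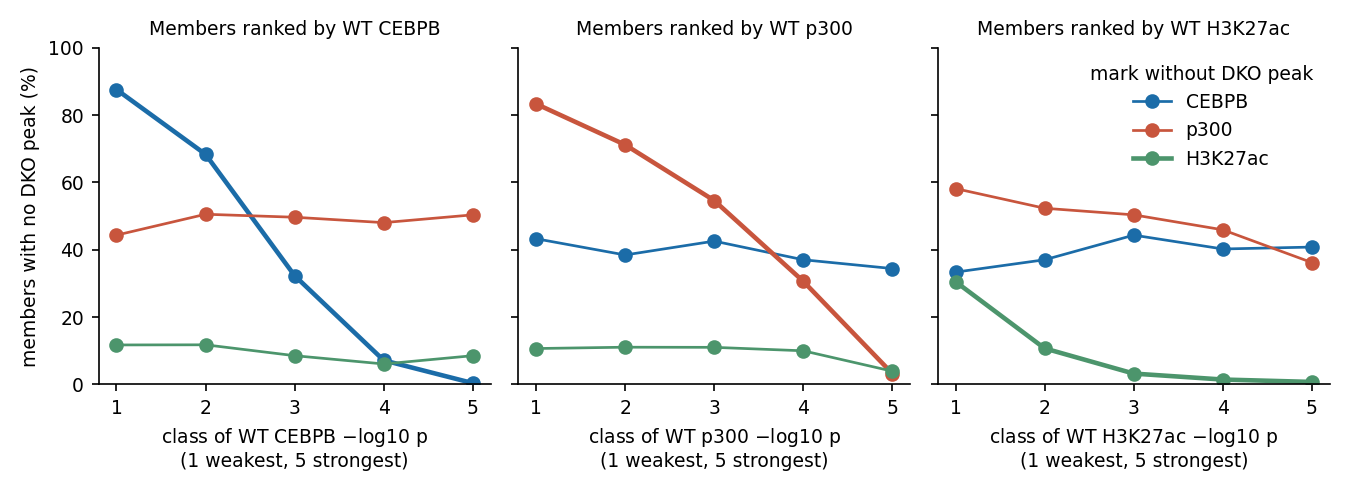
Share of members with no DKO peak (vertical axis, percent) of CEBPB, p300 and H3K27ac, in 5 classes of 281 or 282 members ranked by the WT −log10 p of CEBPB (left), p300 (middle) and H3K27ac (right). The mark that ranks the members falls steeply, CEBPB from 87.6% to 0.355% and p300 from 83.3% to 3.19%, while p300 stays between 44.3% and 50.5% across the CEBPB classes. Across the H3K27ac classes p300 also falls, from 58.2% to 36.2%.

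Among the 282 members of the strongest CEBPB class, 1 lost CEBPB. This was the site 7112 bp from the start of Sirt4, a mitochondrial sirtuin, shown above. Its CEBPB fold enrichment was 29.0 and 32.7 in the WT libraries, with no peak in either DKO library, and its H3K27ac fold enrichment was 4.80 and 9.03 in WT and 6.10 and 6.87 in DKO. It was the strongest CEBPB peak among the members that lost CEBPB and p300. The p300 peak there was called in WT replicate 1 alone, at a fold enrichment of 5.64, and not in WT replicate 2.

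CEBPB was lost at fewer of the members than of the CEBPB sites without p300 in the same class of CEBPB strength. In class 4 of 5 of all 12106 shared sites, ranked by WT CEBPB −log10 p with 1 the weakest, CEBPB was lost at 19.9% of members and 18.1% of sites with p300 and no H3K27ac, and at 37.5% of sites with H3K27ac and no p300 and 40.1% of sites with neither. In class 3 the 4 values were 51.9%, 50%, 71.8% and 65.5%, and in class 5 they were 1.53%, 1.2%, 4.83% and 6.68%. In class 2 they were 74.0%, 63.8%, 83.2% and 80.5%, so members lost CEBPB more often there than sites with p300 and no H3K27ac. The weakest class showed little of this, with 88.0%, 87.0%, 91.1% and 89.4%. Strength was not matched further within a class, and no test is given, since the WT lists chose the sites. The reverse comparison was made for p300. In class 4 of 5 of p300 strength, counted from the weakest, p300 was lost at 40.4% of p300 sites that held a member and at 43.0% of the 4366 p300 sites with H3K27ac and no CEBPB peak, and in the strongest class at 8.82% and 13.1%. The other classes differed little, with 83.8% and 85.2% in class 1, 77.8% and 79.4% in class 2, and 65.1% and 65.8% in class 3.

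Where a mark was still called in all 4 libraries, its height could be compared. CEBPB was called in all 4 at 726 members, with median fold enrichments of 15.7 and 16.8 in WT and 9.21 and 9.83 in DKO. Both DKO values lay below both WT values at 563 of these (77.5%), against 76.8% of all CEBPB sites called in all 4 libraries, and the median log2 difference was -0.72, against -0.67 over all 4196 such CEBPB sites. p300 had medians of 9.60 and 8.89 in WT and 7.61 and 7.69 in DKO over 416 members, a median log2 difference of -0.23 against -0.21 over all p300 sites. H3K27ac had medians of 11.8 and 11.4 in WT and 11.8 and 11.9 in DKO over 997 members, a median log2 difference of 0.00, with the mean in DKO lower at 494 members. Surviving peaks alone are seen here, so these differences leave out the lost ones. The change of CEBPB differed little with the state of p300, with a median of -0.73 over 342 members that lost p300 and -0.63 over 230 that kept it in both DKO libraries. Over the 219 members where both were called in all 4 libraries, the changes of CEBPB and p300 had a Pearson r of 0.11 and a Spearman rho of 0.08, a weak relation given as a description.

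**Figure D4:**
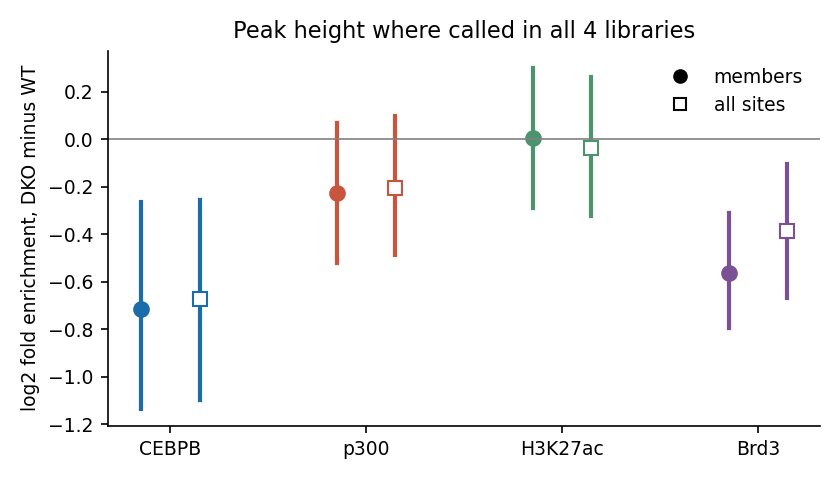
Log2 fold enrichment in DKO minus WT (vertical axis) for sites called in all 4 libraries, with filled circles for members, open squares for all sites of the mark and bars from the lower to the upper quartile. The members' medians are -0.72 for CEBPB, -0.23 for p300, 0.00 for H3K27ac and -0.56 for Brd3, the last over the 56 members whose own interval had a Brd3 peak in all 4 libraries.

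Brd3, which the rule did not use, was found at 661 and 667 members in WT and at 87 and 131 in DKO, so that the groups did not overlap. The whole Brd3 lists held 31404 and 33072 peaks in WT and 8970 and 11549 in DKO, and Brd3 was found at 1691 and 1787 of all shared CEBPB sites in WT and at 274 and 397 in DKO. The mean was 664 ± 4.24 (SD, n = 2) in WT and 109 ± 31.1 (SD, n = 2) in DKO, and the exact two-sided permutation test over the 4 libraries gave p = 0.333, the smallest value that 2 libraries against 2 can give. Of the 513 members with Brd3 in both WT libraries, 361 (70.4%) had it in no DKO library on the CEBPB interval. Read over whole Brd3 sites of both WT libraries, 288 of the 638 that touched a member (45.1%) had no DKO peak, against 51.8% of all such sites. The lowest background of Brd3 was 1.75 and 1.89 reads in WT and 1.24 and 1.54 in DKO, and the part of depth in this difference was not tested. Of members with Brd3 in both WT libraries, 50.5% had none in DKO when a peak within 500 bp counted in either genotype. With lists of equal length the share was 44.9%.

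At the 203 Brd3 sites that held a member and were called in all 4 libraries, the limma test with Benjamini-Hochberg adjustment over 5422 sites called 50 lower in DKO (24.6%) and 0 higher, against 18.8% called lower over all sites, and 184 of the 203 had a lower mean in DKO, as had 82.4% of all Brd3 sites called in all 4 libraries. The median log2 difference was -0.45 at these sites and -0.39 over all sites. With each library centred on its median, 3 were called lower and 1 higher, against 31 lower and 49 higher of all 5422 sites. The number of calls thus depended on the shift that the libraries had over all Brd3 sites. With 1 library left out, the calls at these sites fell in each fit. The median log2 difference was -0.41 without DKO replicate 2 and -0.42 without DKO replicate 1. It was -0.51 without WT replicate 1 and -0.49 without WT replicate 2. Over all sites the medians were -0.36, -0.34, -0.38 and -0.40 in the same order. The lowest adjusted p belonged to the members near A930002H24Rik and Yars. Near A930002H24Rik, Brd3 fold enrichment was 13.5 and 15.2 in WT and 3.66 and 4.24 in DKO (limma log2 difference -1.87, SE 0.24, adjusted p = 0.0030). Near Yars, the tyrosyl-tRNA synthetase gene, it was 16.9 and 16.3 in WT and 5.11 and 4.84 in DKO (limma log2 difference -1.74, SE 0.24, adjusted p = 0.0030). Of the 513 members with Brd3 in both WT libraries, 77.0% lost it where CEBPB was lost and 65.8% where CEBPB was kept. The odds ratio was 1.74, and 1.47 within classes of WT strength. For p300 the shares were 67.4% and 71.9%.

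The marks had a common layout at the members. The p300 summit lay at a median of 53 and 52 bp from the CEBPB summit in the WT libraries, and at 53 and 53 bp where p300 was kept in DKO. The H3K27ac summit lay 281 and 268.5 bp away, and the CEBPB summit was inside a WT H3K27ac peak at 760 members and beside it at 648. CEBPB was lost at 44.3% of the first and 33.0% of the second, whereas H3K27ac was lost at 5.53% and 13.7%, and p300 at 49.6% and 47.4%. The rule's limit was an overlap of 1 bp. The overlap with p300 was at least 2 bp, with a median of 176, and was under 20 bp at 9 members. The overlap with H3K27ac was at least 1 bp, with a median of 139, and was under 20 bp at 78 members. Just outside the rule, 12 sites with H3K27ac had a p300 peak within 20 bp, and 64 sites with p300 had an H3K27ac peak within 20 bp. The 1408 members fell on 1407 merged p300 sites, of which 10 held more than 1 member, so members are nearly all separate p300 sites.

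Members were distal. Their summits lay at a median of 48413.5 bp from the nearest protein-coding start, against 35458 bp for the other shared CEBPB sites, and 46 were within 1000 bp of a start. By GENCODE vM1, 822 were intergenic, 525 intronic and 15 exonic. p300 was lost at 28 of the 46 promoter members, 53.3% of the intronic and 44.5% of the intergenic ones. H3K27ac was lost at 1 of the 46, 6.86% and 11.3%.

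The C/EBP core TTGCNNAA, looked for on either strand in the 201 bp around the CEBPB summit, was found at 495 members (35.2%), against 52.5% of all shared CEBPB sites, 60.6% of sites with neither p300 nor H3K27ac and 8.65% of windows of the same length 5000 bp away. The composite TTGCATCA, in which C/EBP and ATF bases are joined, was at 141 members and 9.91% of all shared sites. The AP-1 motif TGACTCA was at 28.4% of members, 17.6% of all shared sites and 3.55% of the windows 5000 bp away, and the shares with p300 and no H3K27ac (32.4%) were close to those of members. The TEAD motif GGAATG was at 26.3%, 18.5% and 10.4%, and the RUNX motif TGTGGTT at 12.1%, 9.17% and 4.95% of the same sets. At sites with p300 and no H3K27ac the core was at 31.0%, TEAD at 28.6% and RUNX at 18.3%, so these shares were not particular to the members. The CRE TGACGTCA was at 3 members. The C/EBP core was centred, with a median of 12 bp from the summit, while AP-1, TEAD and RUNX matches lay at medians of 42.5, 44.0 and 46.5 bp. TTGCNNAA and TTGCATCA cannot match the same 8 bases on one strand, and a match is a description of the letters and not of binding.

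Members that lost CEBPB alone had the fewest C/EBP matches. A core or composite was found at 47.6% of the 456 members that kept CEBPB and p300, 55.9% of the 401 that lost p300 alone, 31.0% of the 268 that lost CEBPB alone and 34.6% of the 283 that lost both. The share rose with the WT CEBPB class, from 27% in the weakest to 67.7% in the strongest. The composite marked the extreme, since CEBPB was lost at 18.4% of members with it and at 41.4% of those without it, but members with it also had stronger WT peaks, with a median −log10 p of 61.1 against 30.3. AP-1 matches were at 28.0% of the weakest and 31.6% of the strongest CEBPB class. CEBPB was lost at 35.5% of members with an AP-1 match and at 40.6% of those without it, an odds ratio of 0.662 within classes of WT strength, where the C/EBP core gave 1.15 and the composite 0.806. TEAD matches were at 34.8% of the strongest p300 class and 22.7% of the weakest, and RUNX matches at 14.2% and 11.3%.

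Among members that kept all 3 marks in both DKO libraries, the strongest lay in an intron of Runx2, the osteoblast transcription factor, 24632 bp from a start. Its CEBPB fold enrichment was 62.5 and 66.9 in WT and 12.9 and 18.5 in DKO. Its p300 values were 24.8 and 22.0 in WT and 19.8 and 17.5 in DKO. CEBPB thus kept a peak at a much lower height than in WT, whereas p300 moved less. The next was 657 bp from the start of Nup62, a nuclear pore protein gene, with H3K27ac of 35.0 and 31.7 in WT and 36.2 and 39.2 in DKO. A member 28617 bp from Ccl2, the monocyte chemokine, had CEBPB of 37.8 and 42.2 in WT and 20.4 and 26.2 in DKO. The others of this group lay near Actbl2, Wdr67 and Eea1. At all 6 the CEBPB values of DKO were below those of WT, as at 77.5% of members with CEBPB called in all 4 libraries. The 6 were picked for their high WT CEBPB peaks, so this is in part built in.

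Members that lost both CEBPB and p300 had weaker WT CEBPB peaks, with a median −log10 p of 18.2 against 54.7 for members that kept both. The median was 16.8 for members that lost CEBPB alone and 59.7 for those that lost p300 alone. Weak CEBPB peaks thus went with CEBPB loss whether or not p300 was lost. After Sirt4, the site 101524 bp from Pmepa1, a TGF-beta-induced negative regulator of SMAD signalling, had CEBPB of 13.0 and 14.1 and p300 of 4.51 in 1 WT library, with H3K27ac of 7.22 and 7.16 in WT and 13.6 and 9.41 in DKO. The others were near Zmiz1, Ppm1h, Tnp1 and Gm12695, with CEBPB between 11.2 and 15.5 in WT. All 6 kept H3K27ac in both DKO libraries. At Zmiz1, a SUMO ligase and SMAD co-regulator gene, H3K27ac was 10.5 and 10.6 in WT and 6.06 and 4.62 in DKO.

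The next members were named because CEBPB and p300 went different ways there. The site 7238 bp from the start of Htra1 and in its intron, a secreted serine protease gene, had CEBPB of 59.9 and 64.6 in WT and 29.0 and 34.7 in DKO, while p300 was called in 1 WT library at 4.51 and in no other. Near Cdkn1a, the gene of the cell cycle inhibitor p21, CEBPB was 54.4 and 61.4 in WT and 18.3 and 26.0 in DKO, p300 was 9.78 in WT replicate 1 alone, and H3K27ac was 33.9 and 30.3 in WT and 42.7 and 35.4 in DKO. Conversely, near Runx1t1, a transcriptional co-repressor gene, CEBPB was 13.5 and 12.7 in WT and absent in DKO, while p300 was 4.27 and 4.95 in WT and 8.73 and 7.09 in DKO, and H3K27ac was 8.14 and 8.85 in WT and 19.2 and 19.8 in DKO. Both p300 values of DKO were above both of WT there. The others of these classes were near Cd180 and Mmadhc, which kept CEBPB, and Sesn3, Kctd4 and Dut, which kept p300.

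H3K27ac was lost mainly where it was low. Near Dcdc2c it was called in 1 WT library at 5.08, near Errfi1 at 4.90 and near Tank at 3.99, and in no DKO library, although CEBPB was kept in both DKO libraries at each of these. The member in an intron of Pkhd1 had H3K27ac of 9.35 and 11.4 in the WT libraries and none in DKO, with CEBPB of 36.3 and 35.9 in WT and 18.2 and 22.9 in DKO.

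The 1408 members were nearest to 1072 genes, and 219 genes had more than 1 member. At 137 of these 219 genes CEBPB was lost at some members and kept at others, and at 139 genes this held for p300. Thbs1, which encodes the matrix glycoprotein thrombospondin 1, had the most, with 11 members between 72398 and 366006 bp away. CEBPB was kept in both DKO libraries at the 6 Thbs1 members with the strongest WT peaks and lost at the 5 weakest. p300 was lost at 3 Thbs1 members, which ranked 1, 2 and 4 for CEBPB, and H3K27ac was kept in both at all 11. The strongest, 72398 bp away, had CEBPB of 28.4 and 32.9 in WT and 16.8 and 18 in DKO, and p300 of 5.95 and 3.95 in WT only. The member 366006 bp away had CEBPB of 6.84 and 4.86 in WT only, and p300 of 10.7 and 8.31 in WT and 7.36 and 8.57 in DKO. A pair of Thbs1 members 152151 and 152936 bp away shared 1 p300 peak.

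**Figure D5:**
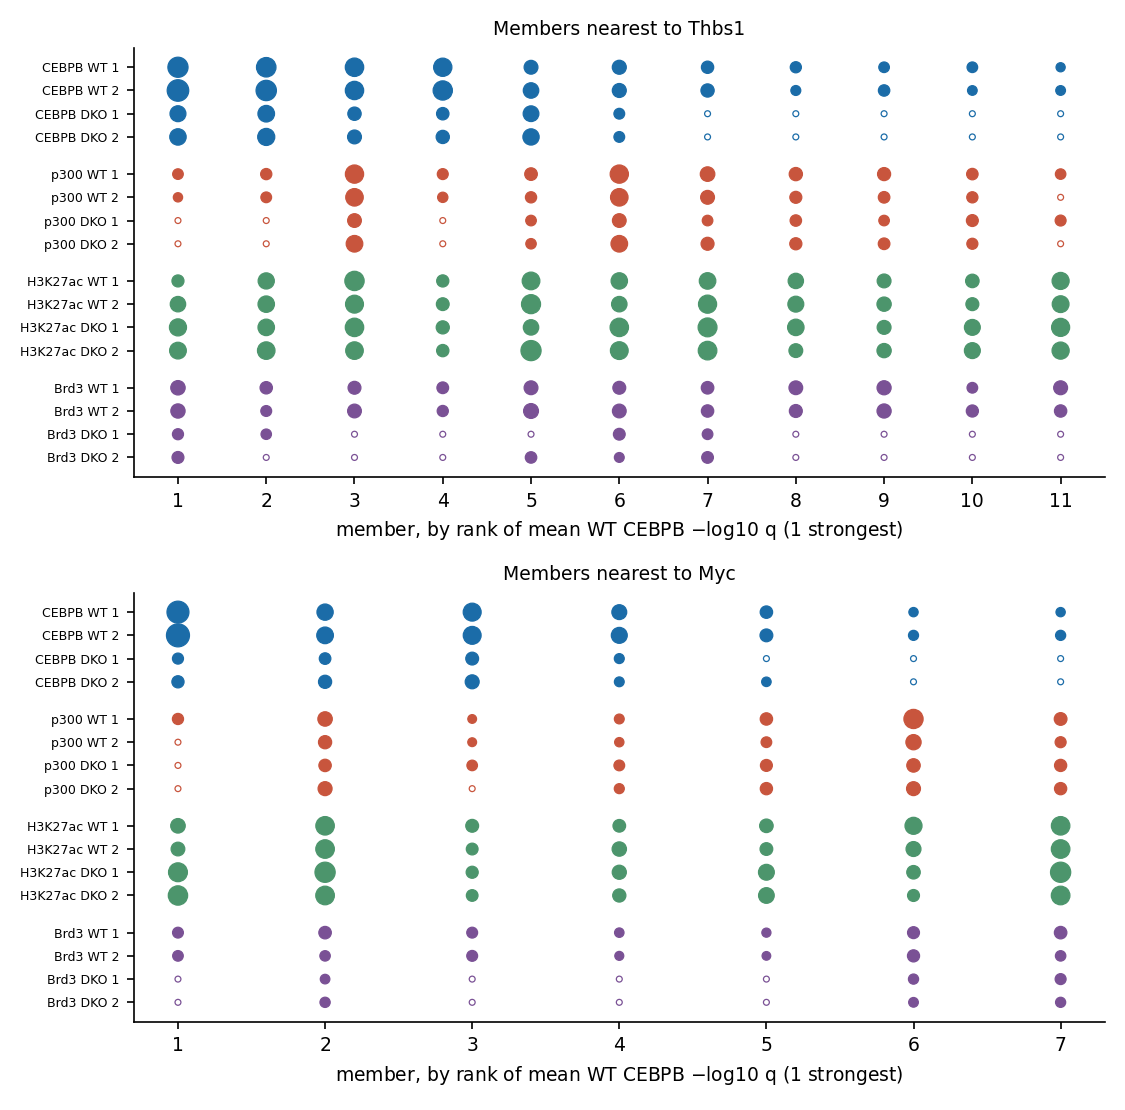
Peaks at the 11 members nearest to Thbs1 (top) and the 7 nearest to Myc (bottom), with members ordered by WT CEBPB strength from left to right and 1 row per library. Filled circles are peaks, with an area that grows with fold enrichment, and small open circles mark no peak. CEBPB is missing in DKO on the right, p300 mostly on the left, and H3K27ac at no member.

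Cited2, a gene of a p300-binding transcriptional regulator, had 9 members, all at least 375278 bp away, of which 1 lost CEBPB and 4 lost p300. Myc, the proto-oncogene, had 7 members at 299446 to 582204 bp, of which 2 lost CEBPB and 1 lost p300. Its strongest member had CEBPB of 34.3 and 37.9 in WT and 6.66 and 8.70 in DKO, with H3K27ac of 13.5 and 11.7 in WT and 24.7 and 26.0 in DKO. The weakest but one had CEBPB of 3.95 and 5.07 in WT only and p300 of 25.6 and 15.1 in WT and 11.2 and 12.1 in DKO. Zfp608 had 7 members, and all 7 lost CEBPB, 5 lost p300 and 2 lost H3K27ac. 2610203C20Rik had 6 members, of which 4 lost CEBPB and 1 lost p300.

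Of all 22232 protein-coding genes, 4.82% were nearest to a member. Among TGF-beta and YAP response genes 9 of 18 were, with 24 members, of which 10 lost CEBPB and 10 lost p300. Thbs1 alone had 11 of the 24 members and 5 of the 10 CEBPB losses. The lists were chosen with earlier results of these data known. Their shares were not set against those of the other CEBPB sites and are a description. The member near Ctgf, the connective tissue growth factor gene, had CEBPB of 40.3 and 42.1 in WT and 26.7 and 32.9 in DKO, and lay in a merged Brd3 site with fold enrichments of 14.7 and 20.3 in WT and 9.77 and 9.25 in DKO (limma log2 difference -0.86, SE 0.25, adjusted p = 0.030). Near Amotl2, an angiomotin gene of the YAP pathway, p300 was 22.0 and 18.4 in WT and 13.0 and 13.7 in DKO. Among growth arrest and stress genes 8 of 18 were nearest to a member, with 15 members, of which 3 lost CEBPB and 6 lost p300. Myc had 7 of the 15. The member 3587 bp from Sesn2, a stress-induced sestrin gene, had CEBPB of 18.7 and 20.8 in WT and 8.74 and 10.6 in DKO. Near Igf1, the insulin-like growth factor 1 gene, p300 was 15.7 and 12 in WT and 12.3 and 12.3 in DKO.

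Among inflammatory and acute phase genes 6 of 24 were nearest to a member, with 8 members, of which 3 lost CEBPB and 4 lost p300. The member 5221 bp from Cxcl5, a neutrophil chemokine gene, went the other way from most, with CEBPB of 25.9 and 28.3 in WT and 30.8 and 37.3 in DKO. Near Ptx3, the pentraxin 3 gene, CEBPB was 15.4 and 12.3 in WT and 10.2 and 9.90 in DKO, with p300 in WT only. Of adipogenesis genes 4 of 17 were nearest, with 6 members, of which 1 lost CEBPB and 4 lost p300. The member 45211 bp from Pparg, the master regulator of fat cells, had CEBPB of 10.4 and 8.18 in WT and 7.67 and 7.17 in DKO, and p300 of 6.60 in 1 WT library only. Of the C/EBP family itself, 2 of 6 genes were nearest, and both members kept CEBPB. The one 88722 bp from Cebpb had CEBPB of 17.6 and 20.1 in WT and 8.11 and 6.24 in DKO, and the one 291 bp from the start of Ddit3, the stress-induced C/EBP homologous protein, 15.4 and 18.8 in WT and 9.46 and 9.96 in DKO. H3K27ac at the Ddit3 start was 41.5 and 34.3 in WT and 21.2 and 23.6 in DKO. Of 18 fibroblast genes 3 were nearest to a member. Near Col5a1, a fibrillar collagen gene, CEBPB was 30.9 and 33.7 in WT and 7.18 and 8.87 in DKO, and H3K27ac 25.9 and 24.5 in WT and 9.58 and 9.62 in DKO. Epcam and Klf4 were the genes of the epithelial and pluripotency lists nearest to a member, at 64222 and 199727 bp. No gene of the AP-1 family (13 genes), of the co-factor and chromatin list (9 genes) or of the macrophage and leukocyte list (10 genes) was nearest to a member.

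Few members were bound in the other cell types of the series. WT NANOG peaks of both embryonic stem cell libraries overlapped 59 members (4.19%), CTCF peaks 23 (1.63%), and IKAROS peaks of both resting B cell libraries 22 (1.56%). For CEBPB sites with H3K27ac and no p300 the shares were 5.14%, 4.35% and 4.15%, for sites with neither 2.02%, 3.49% and 0.716%, and for sites with p300 and no H3K27ac 1.64%, 0.469% and 0.469%. At the 59 members with NANOG, CEBPB was lost at 35.6% and p300 at 40.7%.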

How the data were processed

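MEF ChIP-seq of CEBPB, p300, H3K27ac, Brd3, histone H1 and H3K27me3 was used, with 2 biological replicates per genotype. Reads were trimmed with cutadapt 1.16 and mapped to mm9 with BWA, and peaks were called per library with MACS2 2.1.1.20160309, per the labels. The deposited fold enrichment is the authors' ratio of pileup to local background at the summit, and the authors' caller also wrote the deposited −log10 p and −log10 q of each peak. The lowest −log10 q was 2.00. WT lists of the other cell types gave positions only, and their DKO lists were not used here.

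Peaks overlapped when they shared 1 bp. The members and gene lists were chosen with earlier results of these data known. Named sites were those with the highest mean WT CEBPB −log10 q among members that kept all 3 marks (6), lost CEBPB and p300 (6), kept one of these 2 marks (4 each) or lost H3K27ac (4), the members of the 5 genes with most members, and up to 4 genes per list. Sites singled out after their values were seen are named as such or are the Brd3 sites with the lowest adjusted p. Lists, sequences and overlaps were handled with Python 3.11.15, numpy 2.4.6, pandas 2.3.3, pysam 0.24.0 and scipy 1.17.1, genes with GENCODE vM1, and plots with matplotlib 3.10.9. Brd3 was tested with limma 3.58.1 in R 4.3.3 on log2 of the highest fold enrichment in merged sites called in all 4 libraries, with Benjamini-Hochberg adjustment at 0.05 and without a replicate block. Pileups were solved from fold enrichment and −log10 p below 40 with a tolerance of 0.0005, which failed for the CEBPB lists and leaves their depth unknown. The steps were tested on simulated data. Alternatives covered overlap, thresholds, list length, the WT rule, the DKO window, the Brd3 model and left-out replicates.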

Additional observations from a re-analysis of the deposited data

How the results depend on the processing

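The joint-loss odds ratio stayed above 1 under each alternative that chose the sites in WT lists. For sites chosen in single DKO libraries, the odds ratio of joint absence was 0.685 and 0.633 in the other DKO library. In the WT libraries, where few of these sites lacked CEBPB, it was between 0 and 1.97. Brd3 was found at fewer members in DKO under each alternative for which that number was computed. With a 50% overlap, 670 members remained, CEBPB was lost at 41.3%, p300 at 50.6%, H3K27ac at 20.3% and Brd3 at 76.5%, and the odds ratio of joint loss was 1.56. Brd3 losses here and below are shares of the members with Brd3 in every WT library used. A −log10 q of at least 4 gave an odds ratio of 1.11. The same number of top peaks gave 394 members, losses of 4.31%, 30.7%, 6.60% and 44.9%, and an odds ratio of 2.08. p300 and H3K27ac in both WT libraries gave 717 members, losses of 37.0%, 28.6% and 3.63%, and an odds ratio of 1.31. A DKO peak within 500 bp gave 46.1% for p300, 2.41% for H3K27ac and 50.5% for Brd3, and an odds ratio of 1.14. Strength classes gave 1.31, and DKO library 1 of CEBPB against libraries 1 and 2 of p300 gave 1.08 and 1.12. The causes were not tested. The mirrored rule, added after the values were seen, gave absences of 0.533%, 7.20% and 10.9%.

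Leaving out 1 replicate gave 1006 to 1269 members, CEBPB losses of 42.5% to 45.4%, p300 losses of 35.6% to 59.7%, H3K27ac losses of 6.56% to 16.3%, Brd3 losses of 73.5% to 83.4%, and odds ratios of 1.08 to 1.18. One WT library is enough to choose a member there, and 1 DKO library to lose it, by construction. The Brd3 calls at members fell from 50 to between 0 and 35, with the lone sample of a genotype assumed to vary like the others. With each library centred on its median 3 were called lower, against 31 of all 5422 sites. The replicate block gave 58 at members. Deviations of WT and DKO replicate 1 of Brd3 were uncorrelated (r = 0.000243 over 5422 sites). That value covers 1 antibody and cannot show whether same-numbered samples shared a batch. The depth of the CEBPB libraries is unknown, and 2 replicates limit the exact test to p = 0.333.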
